A study of Mus musculus with 4 samples.

Results

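The chemokine system was represented on the arrays by 52 genes, out of 22180 genes measured. They were chosen by name, as every gene whose only symbol in the platform annotation is a numbered Ccl or Cxcl ligand, Cx3cl1, a numbered Ccr or Cxcr receptor, Cx3cr1 or a numbered Ackr receptor. This naming rule uses no measured value, although it was set with earlier results of these data known. Of these, 18 are CC ligands, 14 are CXC or CX3C ligands, 16 are signalling receptors and 4 are atypical receptors. Each gene had 1 row in the table. Rows that carry several gene symbols were not analysed here, and family members found only on such rows are therefore missing. RefSeq lists them as protein coding in assembly GRCm38.p6 (the C57BL/6J strain), except Cxcl11, a transcribed pseudogene there.

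The study compared fibroblasts of Zip13KO mice, which lack the zinc transporter Zip13 (gene Slc39a13), with fibroblasts of WT mice, 2 Affymetrix Mouse Gene 2.0 ST arrays per group. Its stated interest is how local zinc balance bears on the Golgi and the region around the nucleus. The sources used here do not give strain, age, sex, tissue of origin, passage or the kind of allele. The labels call the replicates biological without naming separate animals or cultures. The p-values set each difference against the spread between these arrays, estimated largely over all genes, and that spread may be technical. Levels are log2 of the deposited intensity, and each difference is the Zip13KO mean minus the WT mean on that scale. A gene was called past the threshold at an adjusted p under 0.05 in limma, adjusted over all 22180 genes.

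Chemokines are small secreted proteins that guide migrating cells. They are named by the spacing of their leading cysteines (CC, CXC, CX3C) and act through G protein-coupled receptors, while atypical receptors bind and remove them without G protein signalling. Fibroblasts are known sources of several ligands, among them Cxcl12, which retains stem and immune cells in tissue, and Ccl2, which draws monocytes. Many inflammatory ligands are induced through NF-kB, and Cxcl9, Cxcl10 and Cxcl11 through interferons.

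On the arrays as a whole, median intensity lay between 94.5 and 96.1, and Pearson's r over all rows was 0.994 between the Zip13KO arrays, 0.994 between the WT arrays and 0.983 to 0.985 between groups. Slc39a13 stood at 8.89 and 8.98 on the arrays labelled Zip13KO, against 8.94 and 8.85 on the WT arrays (difference 0.04, limma adjusted p = 0.820), so its row gives no check of the labels; where its probes lie relative to the deletion is not known. Of 10 fibroblast markers, 9 were above the median of all rows on every array, and Lum, which encodes lumican, was below it on all 4. Ptprc, the pan-leukocyte surface marker CD45, was below the array median on all 4 arrays, as were the macrophage marker Adgre1 and the B cell marker Ms4a1. Above it on all 4 were the leukocyte markers Coro1a and Ptpn6, the macrophage markers Cd68, Cd14, Fcgr1, C1qa and Tyrobp, and the T cell marker Cd3e. So were the endothelial markers Pecam1 and Cdh5 and the epithelial markers Epcam, Cdh1, Krt8 and Krt18. The summed intensity of 5 leukocyte markers was 626 and 595 on the Zip13KO arrays, against 563 and 597 on the WT arrays.

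Among the 52 genes, 2 ligands rose and 8 ligands fell in Zip13KO fibroblasts, and no receptor passed the test. Ccl5 and Cxcl10 rose. Ccl7, Cxcl12, Ccl17, Ccl2, Cx3cl1, Ccl25, Cxcl16 and Ccl9 fell. Over all genes 7.00% were called higher and 10.1% lower, against 3.85% higher and 15.4% lower among the 52, shares close enough to the background that they are not read as a result about the family. Of the 22 members above the median of all rows on all 4 arrays, 9.09% were called higher and 31.8% lower. Over all genes above it on all 4 arrays, the shares were 10.7% and 15.6%. Calls among the members were 2 higher and 8 lower of 32 ligands, and 0 of 20 receptors in limma, of which 1 had an unadjusted p under 0.05. The median difference was -0.00139 over the 52 genes and -0.00341 over all genes. No test of the family as a set was made. Both Zip13KO arrays lay above both WT arrays for 11 of the 52 genes (24.1% of all genes) and below them for 14 (27.3% of all genes). With 2 arrays a group, the smallest two-sided p of an exact permutation test is 0.333, so the calls rest on the spread that limma shares across genes.

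**Figure D1:**
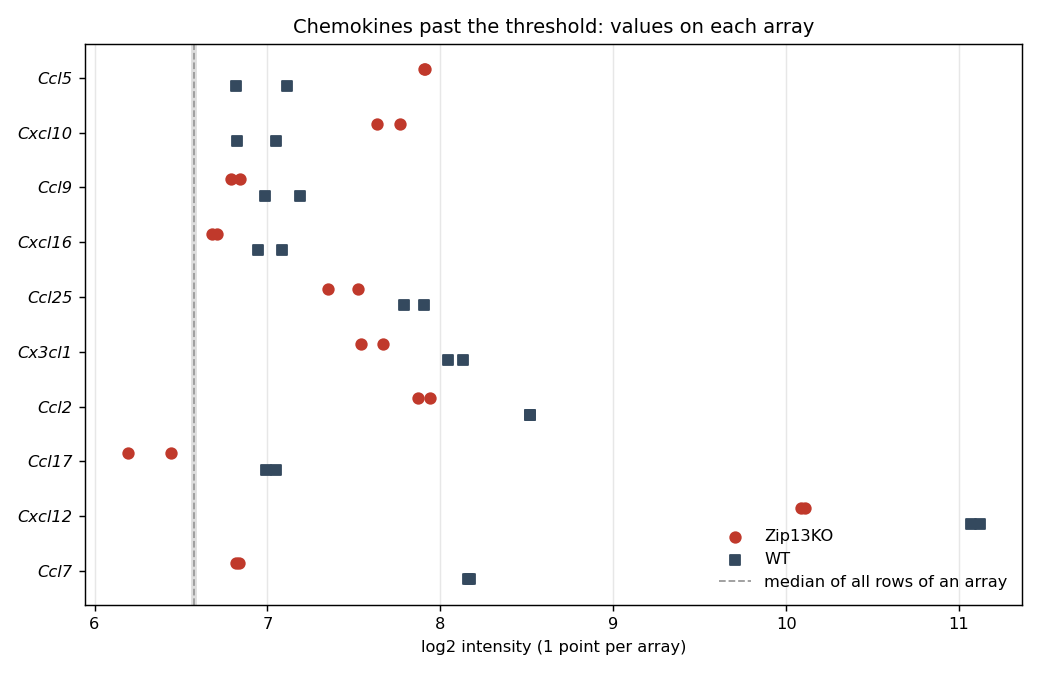
Log2 intensity of the 10 chemokine genes past the threshold, on the x axis with 1 point per array and 1 row per gene, ordered by difference; circles are Zip13KO, squares are WT, the dashed line is the mean of the array medians and the grey band their range. In each of these genes the Zip13KO and WT arrays do not overlap, and only Ccl17 crosses the array median, at 6.44 and 6.19 on the Zip13KO arrays against 6.99 and 7.05 on the WT arrays.

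Of the 52 genes, 22 were above the median of their array on all 4 arrays (42.3%, against 57.2% of all genes). These were the CC ligands Ccl2, Ccl5, Ccl6, Ccl7, Ccl9 and Ccl25, the CXC and CX3C ligands Cxcl2, Cxcl9, Cxcl10, Cxcl12, Cxcl14, Cxcl15, Cxcl16, Cxcl17 and Cx3cl1, the signalling receptors Cxcr1, Cxcr2, Cxcr3, Cxcr4 and Cx3cr1, and the atypical receptors Ackr2 and Ackr3. Ccl17 was above it on both WT arrays only, Cxcr5 was above it on 3 arrays, and 25 genes were below it on all 4. The median of all rows is a mark of brightness and not a limit of detection, since probes differ in how strongly they bind and many rows have no named gene. Measured against the median of rows with 1 gene symbol, 8 of the 52 genes remained above on all 4 arrays, namely Ccl2, Ccl6, Ccl25, Cx3cl1, Cxcl12, Cxcl14, Cxcl17 and Ackr3. For genes near or below the array median, background signal can compress differences in either direction, and its size was not estimated here.

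Cxcl12, also called SDF-1, is the ligand of Cxcr4 and is made constitutively by stromal cells. Its level was 10.09 and 10.11 on the Zip13KO arrays, against 11.07 and 11.12 on the WT arrays. The arrays of each group lay close together and the groups were far apart: Cxcl12 fell by 0.996 (SE 0.06, 95% interval -1.13 to -0.86, limma adjusted p = 2.17e-09), which is 1.99-fold lower. Its signalling receptor Cxcr4 stood at 6.76 and 6.72 in Zip13KO fibroblasts, against 6.72 and 6.88 in WT fibroblasts. The groups overlapped, and the difference was -0.06 (95% interval -0.24 to 0.11, limma adjusted p = 0.747). Ackr3, the atypical receptor that binds and clears Cxcl12, had levels of 7.91 and 7.73 in Zip13KO fibroblasts, against 7.59 and 7.66 in WT fibroblasts. Both Zip13KO values were the higher ones, but the difference of 0.20 (95% interval 0.02 to 0.37) did not pass over all genes (limma adjusted p = 0.140). It passed when Zip13KO replicate 2 was left out (0.29, adjusted p = 0.0370) and was 0.10 when Zip13KO replicate 1 was (adjusted p = 0.653).

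Ccl7 and Ccl2, monocyte attractants that act through Ccr2, both fell. Ccl7 had levels of 6.82 and 6.84 in Zip13KO fibroblasts, against 8.16 and 8.17 in WT fibroblasts, the widest gap among the 52 genes. It fell by 1.34 (SE 0.08, limma adjusted p = 5.76e-10), or 2.53-fold, with Zip13KO values near the array median. Ccl2 was at 7.87 and 7.94 in Zip13KO fibroblasts, against 8.52 on both WT arrays, a fall of 0.61 (SE 0.08, limma adjusted p = 1.11e-05), or 1.53-fold. The 95% intervals of these differences, -1.51 to -1.18 for Ccl7 and -0.77 to -0.45 for Ccl2, do not overlap, although the difference between the genes was not itself tested. The sequences of this subfamily are alike, so part of the signal of a row may come from a relative. Their receptor Ccr2 was below the array median on all 4 arrays, with a difference of -0.09 (95% interval -0.26 to 0.08). The chemokine genes that follow Ccl2 and Ccl7 on chromosome 11, in the order Ccl11, Ccl12, Ccl8 and Ccl1, differed by between -0.04 and 0.07, and none passed.

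Ccl5, also called RANTES, attracts T cells and monocytes, and it rose. Levels were 7.90 and 7.91 in Zip13KO fibroblasts, against 7.11 and 6.82 in WT fibroblasts. The WT arrays differed from each other by 0.30 and the groups by 0.94 (SE 0.09, 95% interval 0.75 to 1.14, limma adjusted p = 6.54e-07), a 1.92-fold rise. It was 1.09 when WT replicate 1 was left out and 0.80 when WT replicate 2 was, each past the threshold. Its next neighbour on chromosome 11, Ccl9, a mouse attractant of myeloid cells, went the other way, with 6.79 and 6.84 in Zip13KO fibroblasts against 6.99 and 7.19 in WT fibroblasts. The groups did not overlap and Ccl9 fell by 0.27 (SE 0.09, limma adjusted p = 0.0364). This call was lost without WT replicate 2 (-0.17, adjusted p = 0.369) and without Zip13KO replicate 1 (-0.25, adjusted p = 0.110), and with every row in the fit (adjusted p = 0.193). Ccl6, which follows it and is likewise known from mouse myeloid cells, stood at 7.63 and 7.59 in Zip13KO fibroblasts, against 7.48 and 7.51 in WT fibroblasts, and its difference of 0.11 did not pass (limma adjusted p = 0.431). Ccl3 and Ccl4, the last of this group, differed by 0.09 and 0.06 and did not pass.

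Cxcl10, an interferon-inducible ligand of Cxcr3, rose, and its relatives Cxcl9 and Cxcl11 did not pass. Cxcl10 levels were 7.77 and 7.63 in Zip13KO fibroblasts, against 6.83 and 7.05 in WT fibroblasts. Every Zip13KO value exceeded every WT value, with a difference of 0.76 (SE 0.09, 95% interval 0.57 to 0.95, limma adjusted p = 6.24e-06), a 1.69-fold rise. Cxcl9 had levels of 6.77 and 6.95 in Zip13KO fibroblasts, against 6.73 and 6.72 in WT fibroblasts, and did not pass (0.13 apart, 95% interval -0.05 to 0.31, limma adjusted p = 0.382). Cxcl11, the pseudogene in the reference strain, was below the array median on all 4 arrays and differed by 0.01. The 95% interval of Cxcl10 lies above those of Cxcl9 and Cxcl11, but the differences between these genes were not tested. Cxcr3, which binds these ligands, was at 7.24 and 6.82 in Zip13KO fibroblasts, against 7.13 and 7.06 in WT fibroblasts. Its Zip13KO arrays lay 0.42 apart, the widest replicate gap among the 52 genes, and the groups overlapped (difference -0.06, limma adjusted p = 0.811).

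The promoter windows below come from RefSeq (GRCm38.p6), each with 250 bases before and 50 bases after the start of the gene, and 38 of the 52 genes have a window there. They are shown for called genes with large differences and for relatives with which they are compared: Cxcl10, which rose, and its neighbour Cxcl9, which did not pass (chr5:92348840-92349139 and chr5:92328030-92328329, both minus strand); Cxcl12, which fell (chr6:117168285-117168584, plus strand); and the neighbours Ccl17 and Cx3cl1, which both fell (chr8:94810203-94810502 and chr8:94771930-94772229, both plus strand). Each is written 5′ to 3′ on the strand of its gene, and capitals mark matches on either strand to 3 motifs: GGANNTTCC for NF-kB, GAAANNGAA for the core of the interferon-stimulated response element and TGANTCA for AP-1.
Cxcl10: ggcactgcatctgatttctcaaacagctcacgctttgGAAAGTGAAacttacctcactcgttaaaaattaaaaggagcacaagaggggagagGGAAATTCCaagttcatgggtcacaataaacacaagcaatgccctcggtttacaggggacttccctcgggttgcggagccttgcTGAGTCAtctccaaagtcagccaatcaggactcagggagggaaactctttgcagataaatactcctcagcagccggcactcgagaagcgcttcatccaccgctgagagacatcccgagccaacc
Cxcl9: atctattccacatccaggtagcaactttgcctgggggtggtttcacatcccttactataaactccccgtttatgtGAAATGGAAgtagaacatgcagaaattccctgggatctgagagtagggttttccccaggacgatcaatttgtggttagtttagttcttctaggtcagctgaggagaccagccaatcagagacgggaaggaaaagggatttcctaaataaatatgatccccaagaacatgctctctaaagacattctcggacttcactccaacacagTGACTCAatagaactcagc
Cxcl12: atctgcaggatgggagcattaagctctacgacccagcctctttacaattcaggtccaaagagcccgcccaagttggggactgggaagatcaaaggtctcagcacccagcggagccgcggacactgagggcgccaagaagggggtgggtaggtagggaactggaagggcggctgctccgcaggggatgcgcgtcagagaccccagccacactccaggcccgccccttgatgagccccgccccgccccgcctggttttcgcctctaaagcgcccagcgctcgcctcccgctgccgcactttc
Ccl17: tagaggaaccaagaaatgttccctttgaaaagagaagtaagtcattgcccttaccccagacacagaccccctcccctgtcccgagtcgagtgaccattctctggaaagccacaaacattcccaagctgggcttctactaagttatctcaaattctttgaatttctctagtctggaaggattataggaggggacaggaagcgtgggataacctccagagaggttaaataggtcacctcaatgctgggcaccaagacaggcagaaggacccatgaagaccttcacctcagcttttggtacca
Cx3cl1: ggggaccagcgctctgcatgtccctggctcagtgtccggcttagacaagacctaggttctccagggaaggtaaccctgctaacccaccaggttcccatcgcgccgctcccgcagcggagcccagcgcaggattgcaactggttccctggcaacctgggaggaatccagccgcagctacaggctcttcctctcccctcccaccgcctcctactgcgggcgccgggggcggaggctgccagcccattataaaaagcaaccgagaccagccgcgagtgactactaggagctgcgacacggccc
The Cxcl10 window held all 3 motifs, the only one of the 38 genes searched to do so; the other 14 members, among them the called genes Ccl5, Ccl2, Ccl7 and Cxcl16, were not searched. Counting from the first base of each match, the interferon element began 213 bases before the start, the NF-kB motif 158 bases before and the AP-1 motif 74 bases before. Cxcl9 held an interferon element 175 bases before the start and an AP-1 motif 32 bases after it, and no match to the NF-kB letters. The windows of Cxcl12, Ccl17 and Cx3cl1 held none of the 3. Of the 6 called genes with a window, 2 held any of the motifs (Cxcl10 and Ccl9, the second an AP-1 motif) and 4 held none. The NF-kB motif was found in 17.5% of the 40 windows of members and in 4.26% of all 32851 windows, the interferon element in 17.5% and 8.56%, and the AP-1 motif in 6 of the 40 and in 7.81% of all. Cxcl1, Cxcl2 and Cxcl3 carry the same NF-kB letters at 70 to 96 bases before the start; these are close relatives, so their windows are not independent. The letters were set after the values were seen, and sites spelled otherwise were not searched. A window without a match, such as that of Cxcl9 for NF-kB, may therefore still hold a related site. A match describes the letters of a window and not occupancy by a factor.

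Ccl17 and Cx3cl1, neighbours on chromosome 8, fell, and Ccl22, the gene beside them, did not pass. Ccl17, a ligand of Ccr4 on T cells, had levels of 6.44 and 6.19 in Zip13KO fibroblasts, against 6.99 and 7.05 in WT fibroblasts. The groups were separate and Ccl17 fell by 0.70 (SE 0.09, limma adjusted p = 1.53e-05), or 1.63-fold; since its Zip13KO values lie below the array median, this may understate the change. Cx3cl1, or fractalkine, is anchored in the membrane by a mucin-like stalk and binds Cx3cr1. It was at 7.54 and 7.67 in Zip13KO fibroblasts, against 8.13 and 8.04 in WT fibroblasts, a fall of 0.48 (SE 0.08, limma adjusted p = 2.80e-04), or 1.40-fold. Ccl22, which shares the receptor Ccr4 with Ccl17, was below the array median on all 4 arrays, with a difference of -0.03 (95% interval -0.21 to 0.16). Cxcl16, the other membrane-anchored ligand and the partner of Cxcr6, had levels of 6.71 and 6.68 in Zip13KO fibroblasts, against 6.95 and 7.09 in WT fibroblasts. It fell by 0.32 (SE 0.08, limma adjusted p = 0.0103), and the call was lost without WT replicate 2 (-0.25, adjusted p = 0.119) and with every row in the fit (adjusted p = 0.0946). Adam10 and Adam17, proteases that release both anchored ligands from the membrane, differed by -0.08 and 0.05 and did not pass (limma adjusted p = 0.550 and 0.774).

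**Figure D2:**
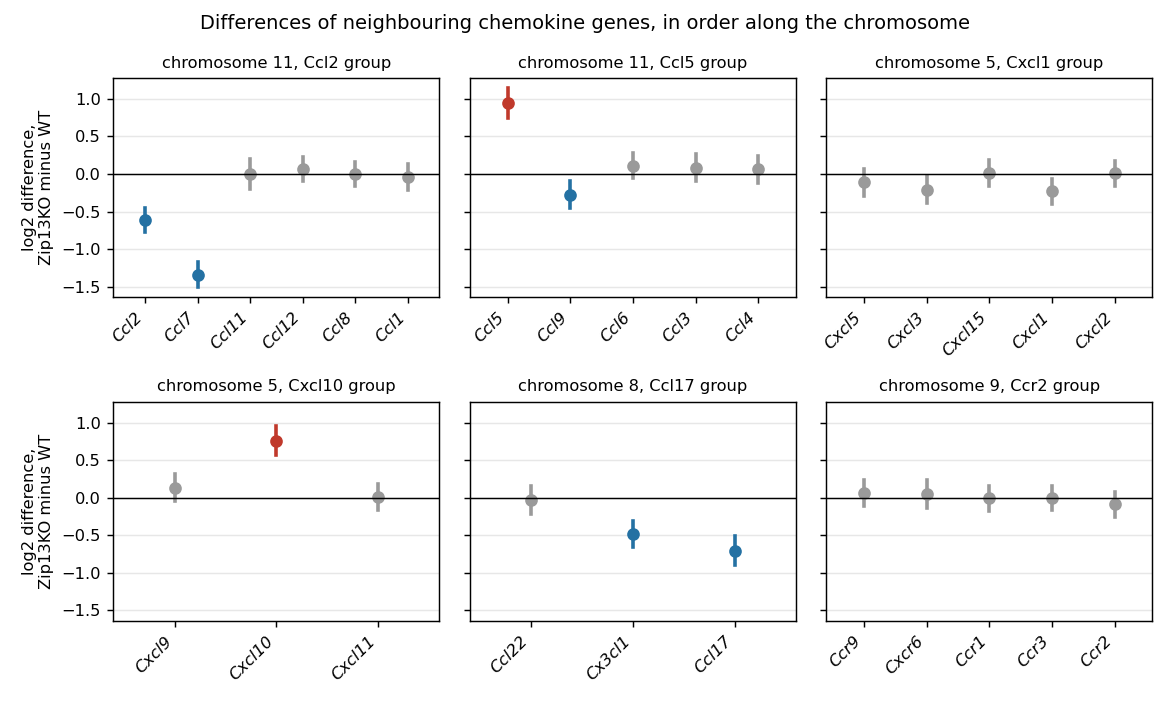
Log2 difference (Zip13KO minus WT, y axis) of neighbouring chemokine genes, in their order along the chromosome (x axis), with 95% intervals as bars; blue is lower in Zip13KO, red is higher and grey did not pass. Called and uncalled genes stand side by side: Ccl2 and Ccl7 lie below 0 (-0.61 and -1.34) beside 4 uncalled genes near 0. Cx3cl1 and Ccl17 (-0.48 and -0.70) stand beside Ccl22 (-0.03), which was not called. Ccl5 (0.94) and its neighbour Ccl9 (-0.27) were both called, in opposite directions, and the Ccl9 call was lost under some alternatives.

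The neutrophil attractants of the CXC class, which act through Cxcr2, did not pass the test. Cxcl2 stood at 6.75 and 6.81 in Zip13KO fibroblasts, against 6.79 and 6.75 in WT fibroblasts, and Cxcl15, a mouse ligand described in lung, at 6.66 and 6.74 in Zip13KO fibroblasts, against 6.63 and 6.74 in WT fibroblasts. Their groups overlapped, with differences of 0.01 for each. Cxcl1 was below the array median on all 4 arrays and just missed the threshold, at -0.23 (95% interval -0.40 to -0.06, limma adjusted p = 0.0530). It passed under 6 of 12 alternatives. The lowest limma adjusted p, 0.0363, came from crossing the replicate numbers between groups, an alternative added after the data were seen. With every row in the fit it did not pass (0.164). Nor did it pass with any array left out, where its difference ran from -0.232 to -0.229. Cxcl3 differed by -0.21 (limma adjusted p = 0.131) and Cxcl5 by -0.11 (0.487), both below the array median on every array. Cxcl3 passed without WT replicate 1 (-0.31, adjusted p = 0.0390) and without Zip13KO replicate 2 (-0.31, adjusted p = 0.00788). It was -0.10 without WT replicate 2 (adjusted p = 0.685) and -0.11 without Zip13KO replicate 1 (adjusted p = 0.569). Their receptors Cxcr2 (6.79 and 6.88 in Zip13KO fibroblasts, against 6.74 and 6.95 in WT fibroblasts) and Cxcr1 (6.83 and 6.72, against 6.88 and 6.77) overlapped between groups, with differences of -0.01 and -0.05.

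Of the remaining ligands, which are mainly known from epithelia, thymus or lymphoid tissue, Ccl25 fell and the others did not pass. Ccl25, which guides thymocytes and gut T cells through Ccr9, was at 7.53 and 7.35 in Zip13KO fibroblasts, against 7.91 and 7.79 in WT fibroblasts. The groups did not overlap and it fell by 0.41 (SE 0.09, limma adjusted p = 0.00195), or 1.33-fold. The call was lost with every row of the table in the fit (adjusted p = 0.0625). Cxcl14 was at 7.64 and 7.58 in Zip13KO fibroblasts, against 7.73 and 7.62 in WT fibroblasts, and the groups overlapped (difference -0.07, limma adjusted p = 0.687). Cxcl17, a mucosal ligand, was at 7.69 and 7.76 in Zip13KO fibroblasts, against 7.55 and 7.60 in WT fibroblasts; these did not overlap, but the difference of 0.15 did not pass (limma adjusted p = 0.257). Ccl20, a ligand of Ccr6, differed by 0.16 (limma adjusted p = 0.371), and passed only without Zip13KO replicate 1 (0.33, adjusted p = 0.0133); without Zip13KO replicate 2 it was at -0.02. Over the 28 genes that were neither called nor above the array median in both arrays of a group, differences ran from -0.23 to 0.16, and their 95% intervals reached no further than -0.40 and 0.37.

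None of the 20 receptors passed in limma, and 1 of them (Ackr3) had an unadjusted p under 0.05. Over all genes 7.00% were called higher and 10.1% lower. Of the receptors, 7 were above the array median on all 4 arrays and 12 were below it on all 4. Of the 32 ligands, 15 were above it on all 4 arrays and 13 below it on all 4. Differences among the 16 signalling receptors ran from -0.09 to 0.13, with 95% intervals between -0.29 and 0.30. Cx3cr1, the receptor of fractalkine and a marker of monocytes and microglia, had levels of 6.76 and 6.80 in Zip13KO fibroblasts, against 6.83 and 6.72 in WT fibroblasts. Cxcr5, the receptor of Cxcl13 on B cells, was at 6.63 and 6.69 in Zip13KO fibroblasts, against 6.56 and 6.57 in WT fibroblasts. The groups overlapped for Cx3cr1 (difference 0.00229) and were separate for Cxcr5, whose difference of 0.10 did not pass (limma adjusted p = 0.528). Ackr2, a scavenger of inflammatory CC ligands, was at 6.74 and 6.90 in Zip13KO fibroblasts, against 6.92 and 6.97 in WT fibroblasts, a difference of -0.13 (limma adjusted p = 0.403). Of the signalling receptors, 10 were below the array median on every array. In bulk RNA, fewer cells that express a gene and less RNA per cell cannot be told apart, for receptors and ligands alike.

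**Figure D3:**
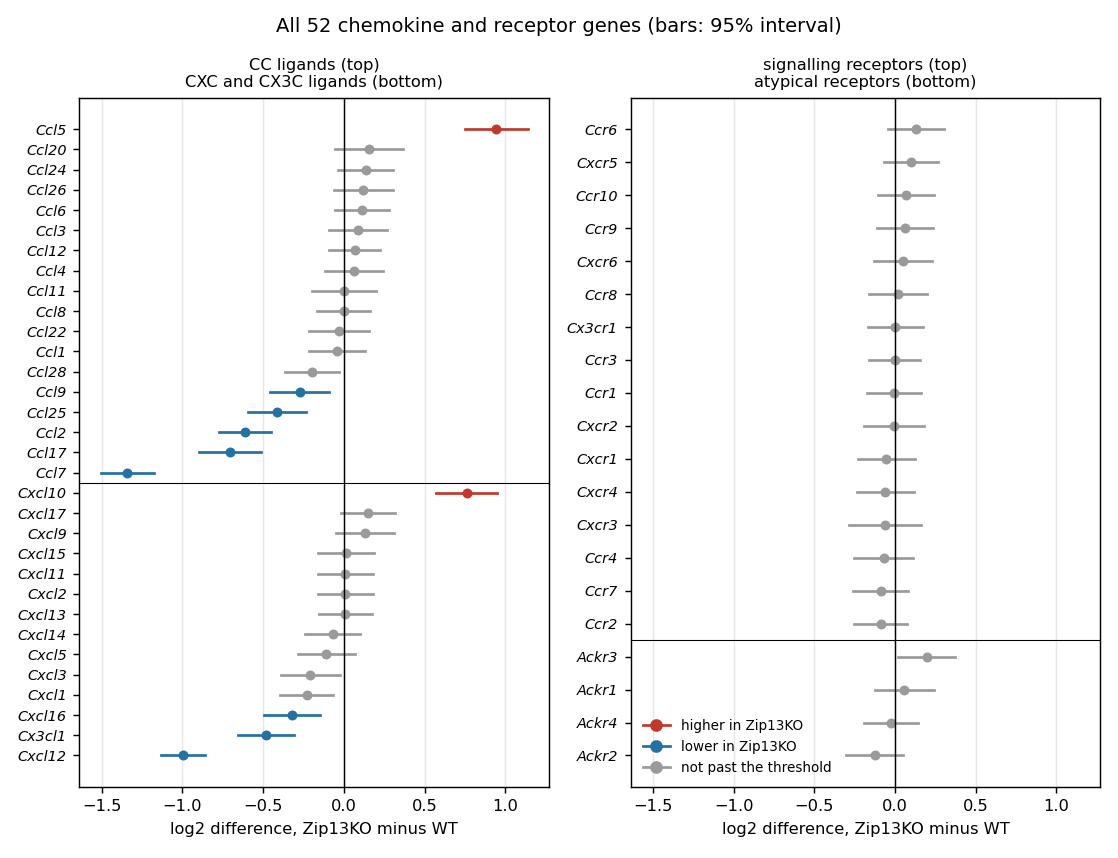
Log2 difference (Zip13KO minus WT, x axis) of all 52 genes with 95% intervals as bars, ligands on the left and receptors on the right; red is higher in Zip13KO, blue is lower and grey did not pass. The 10 called genes are all ligands, from -1.34 (Ccl7) to 0.94 (Ccl5), and the receptors lie between -0.13 (Ackr2) and 0.20 (Ackr3). Over all genes 7.00% were called higher and 10.1% lower.

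Regulators of chemokine induction moved in both directions. For the lists that follow, the shares over all genes were 7.00% higher and 10.1% lower, and over genes above the array median on all 4 arrays they were 10.7% higher and 15.6% lower. Of 34 measured genes of NF-kB, interferon and AP-1 signalling, 9 rose and 11 fell, with a median of 0.000159, and 33 of the 34 were above the array median on all 4 arrays. Irf9, the DNA-binding subunit of the interferon-activated factor ISGF3, was at 8.55 and 8.49 in Zip13KO fibroblasts, against 7.54 and 7.55 in WT fibroblasts, and rose by 0.97 (SE 0.08, limma adjusted p = 3.43e-08). Irf7, another interferon-induced factor, rose by 0.33 and Stat2 by 0.27. The NF-kB subunits Nfkb2 and Rela rose by 0.30 and 0.18, the second close to the threshold (limma adjusted p = 0.0443). The receptor chains Ifnar2 and Ifnar1 fell (-0.52 and -0.28). Tnfaip3, an NF-kB target that restrains the pathway, was at 7.18 and 7.40 in Zip13KO fibroblasts, against 8.05 and 7.94 in WT fibroblasts, and fell by 0.71 (limma adjusted p = 1.13e-05). Nfkbiz, a nuclear cofactor of NF-kB, fell by 0.77, Stat3 by 0.64 and Il6st, the shared receptor chain of the IL-6 family, by 0.39. The other called genes of this list were Jun (0.31), Tlr4 (0.31), Irf3 (0.29) and Nfkbib (0.26), which rose. Hif1a (-0.41), Ifngr1 (-0.38), Zfp36 (-0.36), Nfkbia (-0.25) and Tnfrsf1a (-0.24) fell. Some of these genes are themselves targets of the pathways they serve.

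Of 20 measured genes that present or cleave chemokines, 9 fell and 2 rose (all genes 10.1% lower and 7.00% higher), with a median of -0.14, against -0.00341 over all genes. Mmp2, a gelatinase that trims Cxcl12 and Ccl7, was at 8.16 and 8.22 in Zip13KO fibroblasts, against 10.97 and 10.78 in WT fibroblasts, and fell by 2.68 (SE 0.08, limma adjusted p = 3.01e-14). Heparan sulfate is the sugar chain that holds chemokines at the cell surface. Of 6 measured enzymes that build it, 3 fell, namely Hs6st2 by 0.78, Ext1 by 0.70 and Hs2st1 by 0.57. Ndst1, also listed, was not among the measured genes. Ext2 (-0.19, limma adjusted p = 0.0832), Hs6st1 (-0.09, 0.561) and Ndst2 (0.22, 0.0622) did not pass. Among the proteins that carry such chains, the glypicans Gpc1 and Gpc6 rose by 0.89 and 0.58, while the glypican Gpc4 (-0.27), perlecan (Hspg2, -0.61) and the syndecans Sdc2 (-0.28) and Sdc3 (-1.33) fell. Sdc3 stood at 7.061 and 8.287 in Zip13KO fibroblasts, against 9.007 and 8.995 in WT fibroblasts, so its Zip13KO arrays lay far apart. Sdc1 and Sdc4 did not pass. Dpp4, the peptidase that inactivates several ligands, was below the array median on all 4 arrays, with a difference of -0.02.

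Downstream of the receptors, 7 of 27 measured signalling genes fell and 3 rose (all genes 10.1% lower and 7.00% higher), with a median of -0.07. Grk5, a kinase that desensitizes G protein-coupled receptors, was at 6.86 and 6.69 in Zip13KO fibroblasts, against 8.21 and 8.30 in WT fibroblasts, and fell by 1.48 (SE 0.08, limma adjusted p = 4.66e-10). Ptk2b, the calcium-responsive kinase Pyk2, was at 8.13 and 8.08 in Zip13KO fibroblasts, against 7.00 and 6.93 in WT fibroblasts, and rose by 1.14 (SE 0.08, limma adjusted p = 6.08e-09). Rgs16, which ends G protein signals, rose by 0.74, while the G protein subunits Gnai3 and Gnb1 and the GTPase Cdc42 fell (-0.42, -0.37 and -0.30). The subunit Gnai1 rose by 0.28 (limma adjusted p = 0.0283), and the subunits Gnai2, Gng2 and Gng12 did not pass. These genes serve many receptors besides those of chemokines. Of 10 measured relatives of the family outside the naming rule, Cklf, a chemokine-like factor, fell by 0.30 (limma adjusted p = 0.0132) and the others did not pass.

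**Figure D4:**
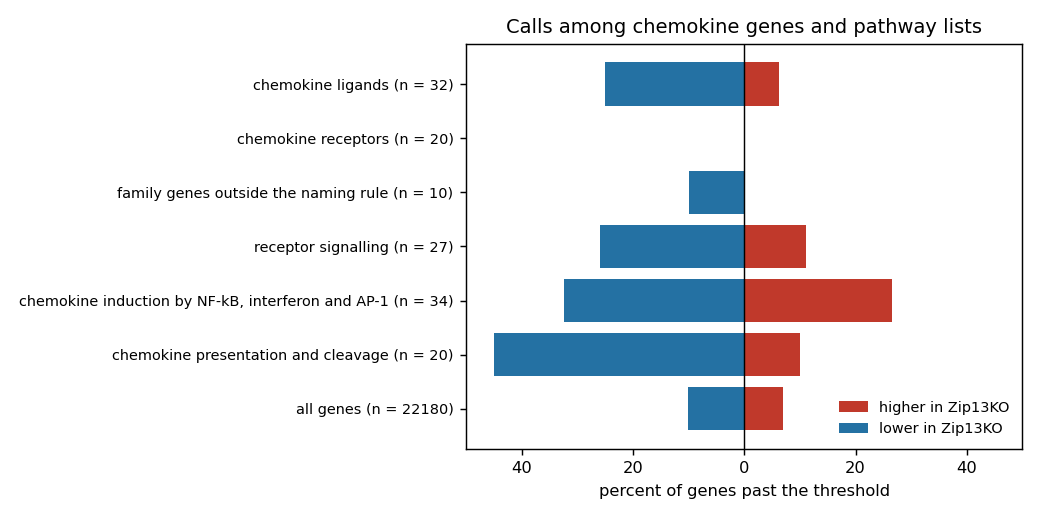
Percent of genes past the threshold (x axis; bars to the left are lower and bars to the right higher in Zip13KO) among chemokine ligands, chemokine receptors, 4 pathway lists and all genes. Ligands show 8 lower and 2 higher of 32 and receptors none of 20, and the induction list has 11 lower and 9 higher of 34. All genes show 10.1% lower and 7.00% higher.

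Markers of cells that could bring chemokines or their receptors with them gave mixed values. Of 5 leukocyte markers, 2 were above the array median on all 4 arrays and 1 rose (Ptpn6, 0.29). Of 10 macrophage markers, 5 were above it, Cd68 rose by 0.40, and Cd14 and Csf1r fell (-0.32 and -0.26). Their summed intensity was 1090 and 1077 on the Zip13KO arrays, against 1136 and 1084 on the WT arrays, so the groups overlapped. Among 6 T and B cell, 5 endothelial and 5 epithelial markers none passed in limma, and 1 endothelial and 1 epithelial marker had an unadjusted p under 0.05. Above the array median on all 4 arrays were 1 of the T and B cell, 2 of the endothelial and 4 of the epithelial markers. The sums were 523 and 475 on the Zip13KO arrays, against 540 and 502 on the WT arrays, for T and B cell markers. Those of the endothelial markers were 435 and 449 on the Zip13KO arrays, against 420 and 417 on the WT arrays, and those of the epithelial markers 606 and 630, against 651 and 602. The endothelial sums were thus higher on both Zip13KO arrays, while the other 2 overlapped. Of 6 neutrophil and mast cell markers, none was above the array median on all 4 arrays and Ly6g rose by 0.26; their sum was 441 and 449 on the Zip13KO arrays, against 464 and 450 on the WT arrays. Of the 10 fibroblast markers, 5 fell (Col1a1, Col1a2, Pdgfrb, Vim and S100a4) and Pdgfra rose by 1.04, beside 10.1% lower and 7.00% higher over all genes and 15.6% and 10.7% over genes above the array median. Their summed intensity was 13910 and 14390 on the Zip13KO arrays, against 18100 and 17010 on the WT arrays, lower on both Zip13KO arrays. The part of these marker differences in the chemokine differences was not tested.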

How the data were processed

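The authors ran total RNA of fibroblasts on 4 Mouse Gene 2.0 ST arrays (Affymetrix), 2 Zip13KO and 2 WT. Each deposited value is a linear intensity. The submitters' processing notes name RMA and Affymetrix Expression Console without versions. They ran from 21.8 to 10826, so RMA's log2 output appears to have been turned back before deposit, and log2 was taken with no pseudocount. RMA aligns the arrays' distributions and would hide a change shared by most genes. The sources used here do not give the annotation build.

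Of 41345 rows, 23521 had 1 gene symbol in the platform annotation, 1814 had several and 16010 were unnamed. The row with the highest mean was kept per gene, leaving 22180 genes, with no filter. The test was limma (version 3.58.1, R 4.3.3; lmFit, eBayes with an intensity trend, two-sided, 2 residual and 15.1 prior degrees of freedom), with Benjamini-Hochberg adjustment over all genes. Only the limma fit was tested on simulated data, which had normal noise and added differences. Plots used matplotlib 3.10.9 in Python 3.11.15. Neighbours were taken as members with at most 5 other coding genes between them in RefSeq's order.

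The members, lists and tests were chosen with earlier results of these data known. By rule, members past the threshold or above the array median on both arrays of a group were named with their values, and up to 6 genes per pathway list by smallest p. Ccl11, Ccl12, Ccl8, Ccl1, Ccl3, Ccl4, Ccl20, Ccl22, Ccr2, Cxcl1, Cxcl3, Cxcl5, Cxcl11 and the motifs' letters were added after the values were seen. So were Irf7, Stat2, Nfkb2, Rela, Ifnar1, Jun, Tlr4, Irf3, Nfkbib, Hif1a, Ifngr1, Zfp36, Nfkbia and Tnfrsf1a. Adam10, Adam17, Dpp4, Ext2, Hs6st1, Ndst2, Gpc4, Hspg2 and the syndecans were likewise added then. The same holds for Gnai1, Gnai2, Gng2 and Gng12. Alternatives were a replicate block, a filter for genes over the array median on 2 or more arrays, 2 further normalizations, 2 variance models, the mean of a gene's rows, all rows, and each array left out. The deviations of same-numbered arrays correlated at -0.12 over all rows, and the numbers mark no shared animal or batch in the labels, so the arrays were treated as unpaired.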

Additional observations from a re-analysis of the deposited data

How the results depend on the processing

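Of the 10 called members, 10 kept their call under the replicate block, the filter, both further normalizations, both variance models and the mean of a gene's rows. With every row in the fit, limma estimated the shared spread from all rows, unnamed ones included, and the adjustment covered more features. Calls over all genes then came to 1806 against 3786, and members lower to 5 against 8. Ccl25 (limma adjusted p = 0.0625), Cxcl16 (0.0946) and Ccl9 (0.193) no longer passed, while members higher stayed at 2. How much of this came from the spread and how much from the adjustment was not tested. Leaving out each array gave 2 to 3 members higher, 6 to 9 lower and 2921 to 3808 genes called; a lone array is then assumed to vary like the other group. Measured against the median of rows with 1 symbol, 8 members were above the median on all 4 arrays, against 22; on both arrays of at least 1 group, 24 were.

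Same-numbered arrays share only a number. The replicate block gave 2 members higher and 8 lower, with 3364 genes called; crossed numbers, added after the data were seen, gave 3 higher and 10 lower, with 5208 genes called and Ackr3 at 0.20 (adjusted p = 0.0386). Among the 14 uncalled members named by the rule, the sign turned for Cx3cr1 when arrays were centred (-0.00350). With an array left out, differences among these 14 spanned 0 for Cx3cr1 (-0.0515 to 0.0560), Cxcl15 (-0.0441 to 0.0667), Cxcl2 (-0.0237 to 0.0415), Cxcr1 (-0.112 to 0.00568), Cxcr2 (-0.111 to 0.0942), Cxcr3 (-0.270 to 0.146) and Cxcr4 (-0.138 to 0.0150); the cause was not tested. No called member changed sign. Ccl20, outside that rule, spanned -0.0180 to 0.333. The other uncalled members, except Cxcl1 and Cxcl3, and the pathway and marker genes were not followed one by one through the alternatives. Signal near the array median limits what can be seen for the 25 members below it.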
